A study of Homo sapiens with 6 samples.

Results

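The cytochrome P450 family was examined in PLC/PRF/5 cells, a line long established from a human liver carcinoma, which were collected 48 h after they received small interfering RNA (siRNA). Members were the transcript clusters whose only gene symbol in the platform annotation starts with CYP and a digit, a transcript cluster being the set of probes summarised into 1 value. There were 47 such clusters among 18708 on the array. Keeping for each gene the cluster with the highest mean over all arrays left 46 genes. The control group was 3 arrays of cells that received an irrelevant siRNA, and the knockdown group was 3 arrays of cells that received siRNAs against SLU7, a splicing factor of the second catalytic step. Both groups were PLC/PRF/5 cells grown in the same serum-containing medium and transfected with the same lipid reagent, and total RNA of each sample was read on its own Affymetrix Human Exon 1.0 ST array. All cells came from 1 tumour line, and the labels do not say whether replicates were separate cultures, and the spread on which p-values rest may therefore be technical. Values are log2 expression levels, and in bulk RNA a smaller share of cells expressing a gene and less RNA of it per cell cannot be told apart.

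Cytochromes P450 are heme enzymes that insert an oxygen atom into fat-soluble molecules. In the liver, members of families 1, 2 and 3 oxidise drugs and other foreign compounds, family 4 hydroxylates fatty acids and eicosanoids, and further families make bile acids and cholesterol or break down vitamins. Most sit in the endoplasmic reticulum and take electrons from P450 oxidoreductase (POR), while those in mitochondria take them from ferredoxin. Several genes of the family are known to be switched on by ligand-activated transcription factors, among them the aryl hydrocarbon receptor and nuclear receptors, and hepatoma lines are known to hold lower levels of many drug-metabolising P450 enzymes than hepatocytes.

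SLU7 itself lay at 7.89, 7.01 and 7.24 log2 units in control replicates 1 to 3 and at 5.84, 5.58 and 6.21 in SLU7 siRNA replicates 1 to 3. The groups did not overlap, and the difference was -1.51 ± 0.31 (SE) log2 units with a limma adjusted p of 0.0783. It passed with that test on bright clusters alone (adjusted p = 0.0213) and with array weights (0.0269). It also passed with an intensity trend (0.033) and with a block for 2 outlying arrays (0.043). In no fit without 1 array did it pass (0.0889 to 0.272). Bright means at or above 6.61, the median of the cluster means over all arrays, and SLU7 had a mean of 6.63. With group means of 7.38 (control) and 5.87 (SLU7 siRNA), it entered the bright set only through the control arrays. On the first principal component (36.6% of the variance) a pair of arrays, control replicate 2 and SLU7 replicate 1, was separated from the remaining 4, so values for the pair and for the other 4 arrays are given where a result rests on them. Hepatocyte markers were mixed: 6 of 10 were bright, among them transferrin and APOA1, but albumin and SERPINA1 had means below 4.92, the lower quartile of all clusters. The mean level of the 10 hepatocyte markers was 8.81 to 8.99 log2 units in control and 8.29 to 8.50 in SLU7 siRNA arrays. All 10 of these markers had differences below 0 (49.5% of all clusters), with a median of -0.55. Their part in the P450 results was not tested. The 8 measured markers of blood, endothelial and mesenchymal cells, of 10 listed, averaged 4.89 to 5.11 in control and 4.63 to 5.06 in SLU7 siRNA arrays.

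Across the family, 1 of 46 genes passed the limma test over all clusters (adjusted p under 0.05), against 0.433% of all clusters. That gene was CYP4F3, which fell (0.299% of all clusters were called lower). At an unadjusted p under 0.05 there were 11 members (13.1% of all clusters), and 7 differed by 1 log2 unit or more (6.91% of all clusters). In 12 members, 26.1% of the family, the 3 arrays of a group lay apart from the 3 of the other without overlap, against 18.9% of all clusters. Of these, 9 were lower with SLU7 siRNA (9.21% of all clusters) and 3 were higher (9.64% of all clusters). Each of these 12 had an exact two-sided permutation p of 0.1, the smallest that 3 arrays against 3 allow, so no single gene can pass by that test. The median difference of the family was -0.16 log2 units, and 30 of 46 differences were below 0 (49.5% of all clusters). The median 95% interval of a member reached 0.71 log2 units to either side, and in 21 members the whole interval stayed within 1 log2 unit of 0.

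Members were split into bright and dim at 6.61 log2 units, the median of the cluster means. Those means are over all 6 arrays, so a fall with SLU7 siRNA can itself make a gene dim. In 3 dim members the control mean was above the limit: CYP4F3 (7.24), CYP4F12 (6.83) and CYP26B1 (6.63). The bright values below leave these 3 out. The bright members include CYP2S1, CYP1A1, CYP1A2, CYP2R1 and CYP2F1, which were above the limit in the control mean only. They also include CYP3A7 and CYP2D7, which were above it in the SLU7 siRNA mean only. The dim member CYP3A4 was above it in the SLU7 siRNA mean as well. The bright and dim medians and counts below 0 therefore depend on a limit set on the compared values. The brightness of a cluster also depends on its probes, so it does not order the genes by transcript amount, and no detection calls were used here. The 18 bright members had a median difference of -0.30 log2 units, with 13 below 0, beside -0.0032 for all bright clusters (50.3% below 0). No bright member passed the limma test (0.684% of bright clusters did), and 5 had an unadjusted p under 0.05 (16% of bright clusters). Groups without overlap were found in 6 bright members, 5 lower and 1 higher, against 24.2% of bright clusters. The 28 dim members had a median of -0.09, beside 0.01 for all dim clusters, with 17 below 0 (48.7% of dim clusters). Among them 1 was called, against 0.182% of dim clusters, and 6 had an unadjusted p under 0.05, against 10.2%. Groups without overlap were found in 6 dim members, the called one included, against 13.5% of dim clusters. The bright median was -0.18 without SLU7 replicate 2, and the dim median was 0.05 without SLU7 replicate 3, 0.04 without control replicate 2, -0.04 without SLU7 replicate 2, -0.19 without SLU7 replicate 1 and -0.16 without control replicate 1 or 3. With the limit at the lower quartile of the cluster means, the medians were -0.10 for bright and -0.26 for dim members. Nearest the limit were CYP2R1 (mean 6.65) and CYP2F1 (6.63) on the bright side and CYP26B1 (6.58) and CYP11A1 (6.37) on the dim side. In 10 members both group means were below the lower quartile, so their differences are uncertain.

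**Figure D1:**
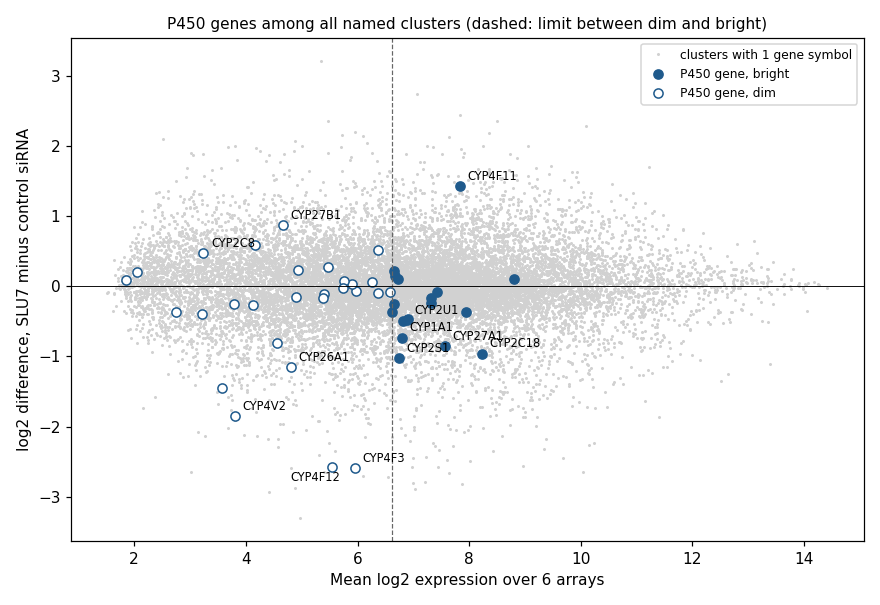
Mean log2 expression over the 6 arrays against the log2 difference (SLU7 siRNA minus control siRNA) for all clusters with 1 gene symbol in grey and the 46 P450 genes in blue. The dashed line at 6.61 separates dim from bright, and names mark the 12 genes whose groups do not overlap, of which CYP4F3 and CYP4F12 have differences of -2.58.

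Family 4, whose enzymes hydroxylate the end of fatty acid chains and inactivate leukotrienes, held the lowest and the highest differences of the whole family. CYP4F3, a leukotriene and fatty acid hydroxylase (cluster 3823339), had log2 levels of 7.69, 6.78 and 7.25 in control replicates 1 to 3 and of 4.13, 5.48 and 4.36 in SLU7 replicates 1 to 3. Every SLU7 siRNA array lay more than 1 log2 unit below every control array. CYP4F3 fell by 2.58 ± 0.41 (SE) log2 units, or 6.0-fold (95% interval 3.15 to 11.4), with a limma adjusted p of 0.0485. The SLU7 siRNA mean of 4.65 ± 0.72 (SD, n = 3) was below the lower quartile of all clusters, which leaves the size of the fold uncertain. The difference was -2.65 between the 2 arrays that stand apart and -2.55 in the other 4. The call was lost in each of the 6 fits without 1 array, where the difference ran from -2.996 to -2.32 and the adjusted p from 0.0653 with control replicate 2 left out to 0.18 with control replicate 3 left out. It was also lost in the 4 arrays alone (adjusted p = 0.114 with limma).

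CYP4F12, a hydroxylase of fatty acids that also takes some antihistamine drugs (cluster 3823375), had a difference of nearly the same size. Its log2 levels were 7.04, 6.24 and 7.22 in the control arrays and 3.15, 5.14 and 4.47 in the SLU7 siRNA arrays. As for CYP4F3, control replicate 2 was the lowest control and SLU7 replicate 1 the lowest array of all. The difference of -2.58 ± 0.50 log2 units had a limma adjusted p of 0.07 and did not pass. It was -3.09 in the pair of arrays that stand apart and -2.32 in the other 4. It passed with an intensity trend and robust shrinkage (adjusted p = 0.0246), with array weights (0.0253) and with the pair of arrays as a block (0.0214). The ratio of CYP4F3 to CYP4F12 within each array averaged 0.41 ± 0.33 log2 units (SD, n = 3) in control arrays and 0.40 ± 0.54 in SLU7 siRNA arrays.

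CYP4F11, a hydroxylase of fatty acids and vitamin K (cluster 3853687), had the opposite sign. It was the only member of family 4 that counted as bright over the 6 arrays. Its control mean of 7.11 lay below the 7.24 of CYP4F3. Its levels were 6.73, 7.54 and 7.06 log2 units in the control arrays and 9.36, 8.27 and 7.99 in the SLU7 siRNA arrays. All SLU7 siRNA arrays were above all control arrays, and SLU7 replicate 1 was the highest. The difference was 1.43 ± 0.40 (SE) log2 units (95% interval 0.52 to 2.34) and did not pass (limma adjusted p = 0.159). It was 1.82 in the pair of arrays that stand apart and 1.23 in the other 4, and it passed with that pair as a block (adjusted p = 0.0304). The log2 ratio of CYP4F3 to CYP4F11 within an array was 0.13 ± 0.86 (SD, n = 3) with control siRNA and -3.89 ± 1.24 with SLU7 siRNA. No test is given for this ratio, since genes that separate the groups in opposite directions fix its separation. CYP4F2, which hydroxylates vitamin K and leukotrienes, had a difference of 0.27 ± 0.26 (95% interval -0.33 to 0.87), and CYP4F22, a skin enzyme that makes ceramide precursors, one of -0.06 ± 0.35 (-0.85 to 0.73). CYP4F genes are close paralogs, so a probe may bind transcripts of more than 1 of them. Cross-hybridisation was not tested, because probe sequences were not used here.

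The 5 measured CYP4F genes neighbour each other on chromosome 19 in the order CYP4F22, CYP4F3, CYP4F12, CYP4F2 and CYP4F11 in RefSeq (GRCh38.p14). The order was looked up after the values were seen. CYP4F3 and CYP4F12 were adjacent among measured genes, and 3 measured olfactory receptor genes separated them from CYP4F2 and CYP4F11. Including those 3 and 3 measured genes on each side, the 9 genes of other families had differences from -0.84 to 0.70. None passed the limma test (0.433% of all clusters), and 1 had an unadjusted p under 0.05 (13.1% of all clusters). Of these 9, the groups did not overlap in 1 (18.9% of all clusters), AKAP8L, which encodes a nuclear scaffold protein and had a difference of 0.70 ± 0.26. No test compared the CYP4F genes with their neighbours.

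**Figure D2:**
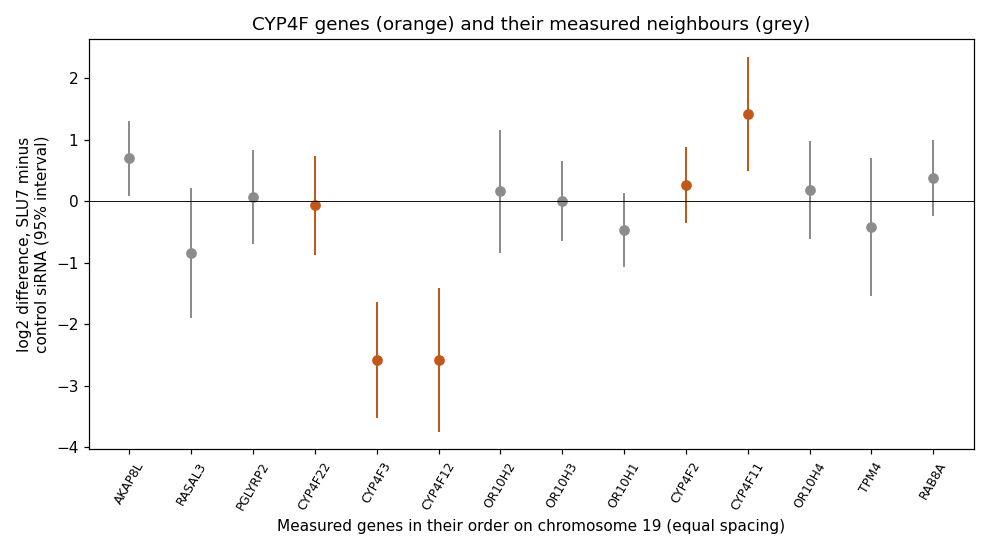
Log2 difference (SLU7 siRNA minus control siRNA) with its 95% interval for 14 measured genes in their order along chromosome 19, drawn at equal spacing. The 5 CYP4F genes are orange: CYP4F3 and CYP4F12 lie at -2.58 and CYP4F11 at 1.43, while the 9 grey neighbours lie between -0.84 and 0.70.

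Start regions are shown for CYP4F3, CYP4F11 and CYP4F2, neighbouring paralogs whose differences were not alike, and for CYP4V2, a gene of the family on another chromosome. CYP4F12 and CYP4F22 are not among them. The sequences are from RefSeq (GRCh38.p14), from 250 bases before to 50 bases after a gene start. For CYP4F3 the region is chr19:15641062-15641361 on the plus strand. CYP4F11 has a pair of starts on the minus strand, the first at chr19:15934818-15935117 and the second, nearer to the gene body, at chr19:15934480-15934779. CYP4F2 is at chr19:15898025-15898324 on the minus strand, and CYP4V2, a more distant member of the family, at chr4:186191317-186191616 on the plus strand. Capitals mark matches on either strand to any of 5 motifs: TATAAA (the TATA box), CCAAT (the CCAAT box), AGGTCA (a nuclear receptor element), TGTTTAC (a forkhead site) and GCGTG (the core of the aryl hydrocarbon receptor site).
CYP4F3: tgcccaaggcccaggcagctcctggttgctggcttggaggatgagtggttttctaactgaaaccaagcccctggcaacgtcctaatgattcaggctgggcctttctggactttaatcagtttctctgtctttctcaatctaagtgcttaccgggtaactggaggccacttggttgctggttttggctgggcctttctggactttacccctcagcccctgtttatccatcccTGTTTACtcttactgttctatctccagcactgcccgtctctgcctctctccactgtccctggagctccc
CYP4F11 first start: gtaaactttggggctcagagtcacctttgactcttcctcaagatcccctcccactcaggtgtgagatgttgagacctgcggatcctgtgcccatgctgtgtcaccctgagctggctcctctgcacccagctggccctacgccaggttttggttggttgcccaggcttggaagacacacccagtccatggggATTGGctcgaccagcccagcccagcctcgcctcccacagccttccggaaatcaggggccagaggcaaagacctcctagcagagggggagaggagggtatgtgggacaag
CYP4F11 second start: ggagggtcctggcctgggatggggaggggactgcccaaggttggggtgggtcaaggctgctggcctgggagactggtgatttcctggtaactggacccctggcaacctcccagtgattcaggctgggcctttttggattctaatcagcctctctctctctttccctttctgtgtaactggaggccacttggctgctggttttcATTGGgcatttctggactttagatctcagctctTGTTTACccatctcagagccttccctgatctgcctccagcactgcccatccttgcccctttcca
CYP4F2: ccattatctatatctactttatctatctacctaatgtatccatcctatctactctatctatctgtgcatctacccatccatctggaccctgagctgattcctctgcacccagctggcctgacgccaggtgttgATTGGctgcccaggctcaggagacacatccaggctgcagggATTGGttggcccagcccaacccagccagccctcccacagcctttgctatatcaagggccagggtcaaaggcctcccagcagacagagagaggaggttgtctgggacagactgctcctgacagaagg
CYP4V2: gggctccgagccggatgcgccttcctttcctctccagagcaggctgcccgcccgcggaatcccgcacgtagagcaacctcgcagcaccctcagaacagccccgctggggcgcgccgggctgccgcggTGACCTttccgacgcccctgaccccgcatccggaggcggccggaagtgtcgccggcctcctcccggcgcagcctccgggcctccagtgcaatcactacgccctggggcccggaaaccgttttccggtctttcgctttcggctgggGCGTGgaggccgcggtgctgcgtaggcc
In a global alignment without a penalty for gaps at the ends CYP4F3 shared 212 identical bases with the second CYP4F11 start over 260 aligned bases and 83 with the first over 103. The first CYP4F11 start shared 214 with CYP4F2 over 267. The stretch that aligned thus differed in length, and a shared base count reads that length as well as the likeness. The same alignments with CYP4V2 gave 112 to 179 identical bases over 151 to 251 aligned. TGTTTAC was found 19 bases before the CYP4F3 start and 14 bases before the second CYP4F11 start, and 3.42% of all 35116 regions of this length hold it. CCAAT, in its reverse form, was found in both CYP4F11 regions and in CYP4F2, and 34.6% of all regions hold it. AGGTCA, in its reverse form, and GCGTG were found in CYP4V2 (13.8% and 36.5% of all regions). TATAAA was found in none of the 5 regions shown and in 11.5% of all regions. A match describes the letters of the region and no more.

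The other named member of family 4 was CYP4V2, a fatty acid hydroxylase whose loss causes a retinal dystrophy (cluster 2755104). Its log2 levels were 4.41, 4.75 and 5.02 in the control arrays and 3.46, 2.40 and 2.76 in the SLU7 siRNA arrays. The groups did not overlap, and unlike in CYP4F3 the highest SLU7 siRNA array was replicate 1. The difference of -1.85 ± 0.33 log2 units had a limma adjusted p of 0.0583 and did not pass, and both group means were below the lower quartile of all clusters. It was -1.28 in the pair of arrays that stand apart and -2.13 in the other 4, and it passed with array weights (adjusted p = 0.014), with that pair as a block (0.0296) and with an intensity trend (0.0456). The remaining 5 genes of family 4, CYP4F2 and CYP4F22 included, had differences from -0.37 (CYP4Z1) to 0.27, with overlapping groups. The median over all 9 was -0.16, and it was 0.08 without control replicate 2, -0.41 without SLU7 replicate 1, -0.39 without control replicate 1 and -0.10 without SLU7 replicate 2.

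**Figure D3:**
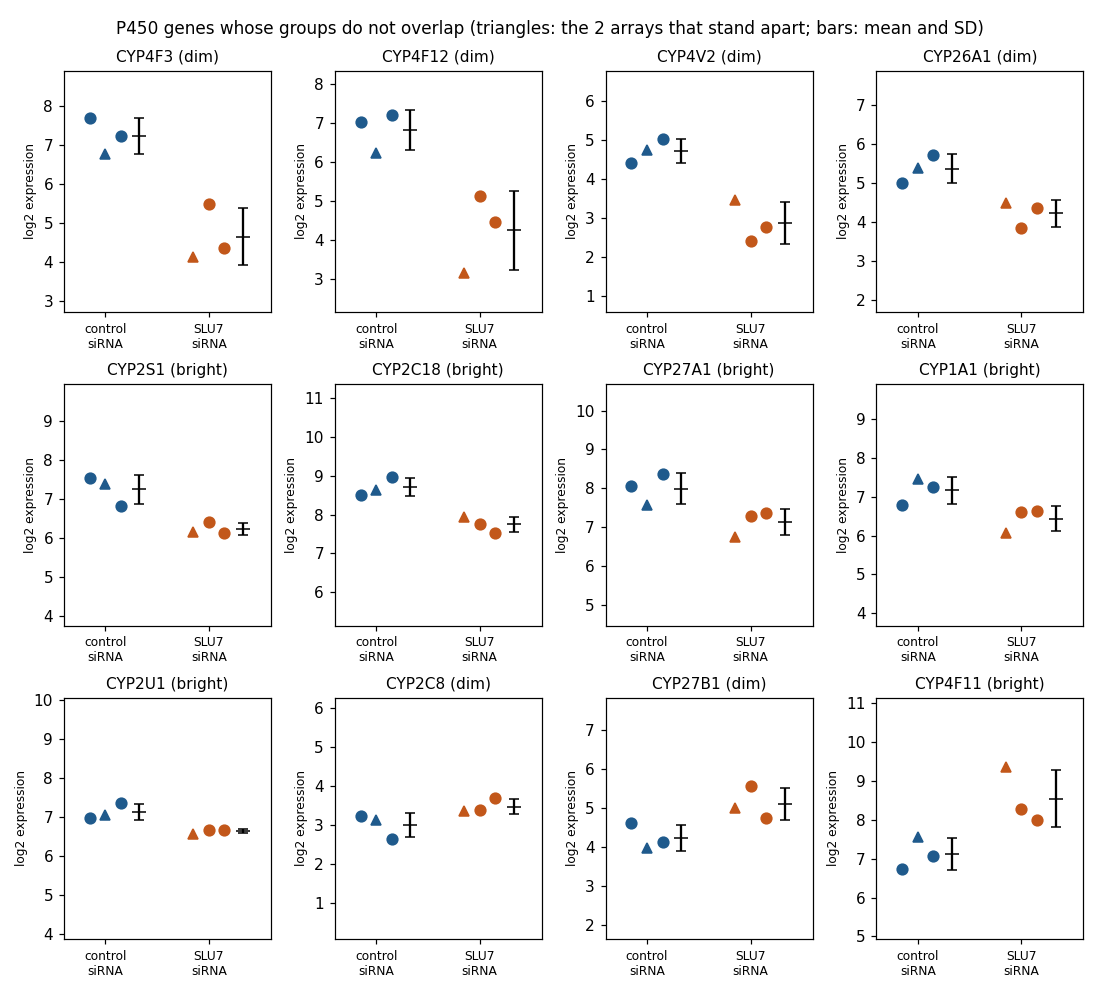
Log2 expression in each array for the 12 P450 genes whose groups do not overlap, ordered from the lowest to the highest difference, with every panel spanning the same number of log2 units. Triangles are control replicate 2 and SLU7 replicate 1, and bars are the mean and SD of 3 arrays. CYP4F3 and CYP4F12 show the widest gaps, and the last 3 panels, CYP2C8, CYP27B1 and CYP4F11, are the genes higher with SLU7 siRNA. Both group means of CYP2C8 were below the lower quartile of all clusters.

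Families 1 to 3 hold drug-metabolising P450 enzymes, but also genes with other roles, such as CYP2R1, CYP2U1 and CYP2J2, and the pseudogene CYP2B7P. Of their 19 genes, 0 passed the limma test (0.433% of all clusters). An unadjusted p under 0.05 was found in 3, a share near the 13.1% of all clusters. The 11 bright ones had a median difference of -0.37 with 9 below 0 (50.3% of bright clusters). The 8 dim ones had a median of -0.01 with 4 below 0 (48.7% of dim clusters). This split uses the compared values. Among the bright ones, CYP2S1, CYP1A1, CYP1A2, CYP2R1 and CYP2F1 were above the limit in the control mean only. CYP3A7 and CYP2D7 were above it in the SLU7 siRNA mean only. The median over all 19 was -0.25, and it was -0.11 without SLU7 replicate 2 and -0.15 without control replicate 2. CYP2S1, an extrahepatic enzyme of retinoid and eicosanoid metabolism, had log2 levels of 7.54, 7.39 and 6.83 in control and 6.14, 6.42 and 6.13 in SLU7 siRNA arrays. Its groups did not overlap, with a difference of -1.02 ± 0.28 (95% interval -1.66 to -0.39, limma adjusted p = 0.153). CYP2C18, a member of the drug-metabolising 2C subfamily, had levels of 8.51, 8.64 and 8.96 in control and 7.94, 7.75 and 7.54 in SLU7 siRNA arrays. Its difference of -0.96 ± 0.26 (95% interval -1.54 to -0.37, adjusted p = 0.148 with limma) passed when dim clusters were left out of the test (adjusted p = 0.047) and with array weights (0.0474). The other 2 measured genes of that subfamily were dim: CYP2C19 had a difference of -0.17 ± 0.25 with overlapping groups, and CYP2C8 one of 0.47 ± 0.27 without overlap.

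CYP1A1, the classic target of the aryl hydrocarbon receptor, had log2 levels of 6.78, 7.47 and 7.24 in control and 6.06, 6.61 and 6.63 in SLU7 siRNA arrays. The groups lay close together, with control replicate 1 just above SLU7 replicate 3. The difference of -0.73 ± 0.29 did not pass (limma adjusted p = 0.337), and it was -1.40 in the pair of arrays that stand apart and -0.39 in the other 4. CYP1A2, which oxidises caffeine, had a difference of -0.50 ± 0.31 with overlapping groups (-0.26 without control replicate 2), and CYP1B1, which hydroxylates estrogens, one of -0.11 ± 0.24. CYP2U1, a hydroxylase of long-chain fatty acids, was lower in all SLU7 siRNA arrays (6.57 to 6.67) than in all control arrays (6.97 to 7.35), with a difference of -0.49 ± 0.24 log2 units (limma adjusted p = 0.456). CYP2J2, which makes epoxides of arachidonic acid, had overlapping groups and a difference of -0.16 ± 0.25. CYP2W1, known from tumours and fetal tissue, had one of -0.37 ± 0.28 with overlapping groups, and -0.16 without SLU7 replicate 2.

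In family 3 the differences had both signs and all groups overlapped. CYP3A4, the main drug-metabolising P450 of adult liver, had log2 levels of 6.56, 5.59 and 6.16 in control and 6.74, 6.92 and 6.23 in SLU7 siRNA arrays. Control replicate 1 lay above SLU7 replicate 3. The difference of 0.52 ± 0.33 (95% interval -0.23 to 1.27) was 1.14 in the pair of arrays that stand apart and 0.21 in the other 4. CYP3A7, the fetal form, had a difference of 0.21 ± 0.31 and CYP3A43 one of -0.39 ± 0.41. CYP2E1, the ethanol-oxidising enzyme, was the dimmest member, with levels of 1.55 to 2.04 in control and 1.85 to 1.98 in SLU7 siRNA arrays. CYP2B7P (CYP2B7P1 in the array annotation), a pseudogene, had a difference of 0.59 ± 0.35 and its coding paralog CYP2B6 one of -0.27 ± 0.32, and CYP2D7 (CYP2D7P1 in the array annotation) one of 0.14 ± 0.30. Values of such near-identical copies are uncertain because probes may be shared.

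CYP2R1, the vitamin D hydroxylase of the liver, had 2 clusters that differed in sign. The brighter one had a difference of -0.25 ± 0.24 and the other one of 0.24 ± 0.33, and neither passed. CYP2F1, a lung enzyme, had a difference of -0.36 ± 0.35 with overlapping groups, and it came to -0.08 once control replicate 2 was left out and to -0.11 once SLU7 replicate 2 was.

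Among the 8 genes of families 7, 8, 27, 39, 46 and 51 none passed the limma test (0.433% of all clusters), and 3 had an unadjusted p under 0.05 (13.1% of all clusters). These families act on sterols and bile acids, apart from CYP27B1, a vitamin D enzyme that the family number places here and that is 1 of those 3. Their median was -0.36 with 6 below 0 (49.5% of all clusters), and that median was -0.54 without control replicate 1. CYP27A1, the mitochondrial sterol hydroxylase of the alternative bile acid pathway, had log2 levels of 8.06, 7.56 and 8.36 in control and 6.75, 7.28 and 7.38 in SLU7 siRNA arrays. All SLU7 siRNA arrays were below all control arrays, and the difference of -0.86 ± 0.31 (95% interval -1.56 to -0.15) had an adjusted p of 0.274 with limma. It was about as large in the pair of arrays that stand apart (-0.81) as in the other 4 (-0.88). CYP27B1, the enzyme that activates vitamin D and a member of the same family, was dim and had the opposite sign, with levels of 4.60, 3.97 and 4.11 in control and 5.01, 5.56 and 4.73 in SLU7 siRNA arrays and a difference of 0.87 ± 0.31 (adjusted p = 0.268). CYP51A1, the lanosterol demethylase of cholesterol synthesis, had a difference of -0.47 ± 0.31 with overlapping groups, and it was -0.24 without SLU7 replicate 2.

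CYP7A1, the rate-limiting enzyme of classic bile acid synthesis, varied most between replicates of the 46 genes. Its log2 levels were 5.97, 2.17 and 4.74 in the control arrays and 2.60, 2.43 and 3.53 in the SLU7 siRNA arrays. Control replicate 2 was lower than every SLU7 siRNA array, and the difference of -1.44 ± 0.84 (95% interval -3.35 to 0.46) was 0.43 in the pair of arrays that stand apart and -2.38 in the other 4. CYP8B1, which directs synthesis toward cholic acid, had a difference of -0.80 ± 0.34 in dim values, with SLU7 replicate 3 (4.70) above control replicate 3 (4.63). It was -1.67 in the pair of arrays that stand apart and -0.37 in the other 4. The oxysterol hydroxylases CYP7B1 (-0.25 ± 0.41), CYP39A1 (0.06 ± 0.33) and CYP46A1 (-0.02 ± 0.44) had overlapping groups.

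The 5 steroid hormone enzymes had a median of 0.03, and none passed the limma test (0.433% of all clusters). None had an unadjusted p under 0.05 (13.1% of all clusters), and all groups overlapped (18.9% of all clusters did not). That median was -0.13 without SLU7 replicate 1, -0.11 without control replicate 1 and 0.19 without control replicate 2. CYP11B1, which makes cortisol in the adrenal gland, was the member with the highest mean, at 8.75 ± 0.36 (SD, n = 3) log2 units in control and 8.85 ± 0.38 in SLU7 siRNA arrays. Its difference was 0.11 ± 0.31 (SE), and that of CYP11B2, the aldosterone synthase and a near-identical paralog, -0.09 ± 0.32. CYP11A1, which cleaves the cholesterol side chain, had a difference of -0.09 ± 0.32, CYP17A1, which makes androgen precursors, one of 0.03 ± 0.24 and CYP21A2, the steroid hydroxylase of cortisol synthesis, one of 0.23 ± 0.44. Without a single array the sign of each of these 5 differences turned in at least 1 fit.

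Families 24 and 26 break down active vitamin D and retinoic acid. None of their 4 genes passed the limma test (0.433% of all clusters), and 1 had an unadjusted p under 0.05 (13.1% of all clusters). CYP26A1, the retinoic acid hydroxylase of liver, had log2 levels of 5.00, 5.39 and 5.73 in control and 4.50, 3.84 and 4.36 in SLU7 siRNA arrays. The groups did not overlap, and the difference of -1.14 ± 0.30 (95% interval -1.83 to -0.46) had an adjusted p of 0.142 with limma with dim values in both groups. It passed with array weights. Its paralogs CYP26B1 (-0.09 ± 0.27) and CYP26C1 (0.10 ± 0.25) had overlapping groups. CYP24A1, which degrades active vitamin D, had a difference of 0.07 ± 0.31. CYP20A1, whose substrate is not known, had one of -0.23 ± 0.26. Whether CYP26A1 differed from the other 3 genes of these families was not tested.

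Genes that serve P450 enzymes were read from lists of electron donors, heme metabolism and transcription factors, and 0 of 38 measured genes of 42 listed passed the limma test (0.433% of all clusters), with 6 at an unadjusted p under 0.05, a share near the 13.1% of all clusters. The 8 electron donors and binding partners had a median of -0.41 with 5 below 0 (49.5% of all clusters) and differed in sign. Groups did not overlap in 3 of the 8 (18.9% of all clusters). POR, the common electron donor, had log2 means of 9.30 ± 0.09 (SD, n = 3) with control and 8.61 ± 0.22 with SLU7 siRNA, a difference of -0.69 ± 0.25 (SE) without overlap (adjusted p = 0.268). CYB5A, cytochrome b5, had means of 9.19 ± 0.20 and 8.50 ± 0.13, a difference of -0.69 ± 0.24 without overlap (adjusted p = 0.264). Of the mitochondrial ferredoxins, named after their values were seen, FDX1 had the largest difference of the list, -1.32 ± 0.45 with overlapping groups, and FDX2 one of 0.57 ± 0.25, higher without overlap. In the 11 genes of heme synthesis and breakdown the median was -0.17, with BLVRA, a biliverdin reductase, at -0.92 ± 0.65 and HMOX2, the constitutive heme oxygenase, at 0.29 ± 0.28, both with overlapping groups. Without 1 array BLVRA ran from -1.66 (control replicate 2 left out) to -0.48 (SLU7 replicate 1), and HMOX2 from 0.14 (control replicate 2) to 0.45 (SLU7 replicate 1). In the 19 transcription factors the median was -0.16 with 15 below 0 (49.5% of all clusters). Groups did not overlap in 7 of them (18.9% of all clusters), 6 lower (9.21%) and 1 higher (9.64%). NR1H3, the oxysterol receptor LXR alpha, had a difference of -0.91 ± 0.32 and SREBF2, the driver of cholesterol synthesis genes, one of -0.70 ± 0.25, both without overlap. The largest difference of that list was in the nuclear receptor NR1I2, at -1.09 ± 0.27 without overlap (limma adjusted p = 0.122). Its means of 3.66 with control and 2.57 with SLU7 siRNA were both below the lower quartile of all clusters, so its difference is uncertain. PTGIS and TBXAS1, the P450 enzymes that make prostacyclin and thromboxane and carry other names, had differences of -0.05 ± 0.33 and -0.15 ± 0.28.

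**Figure D4:**
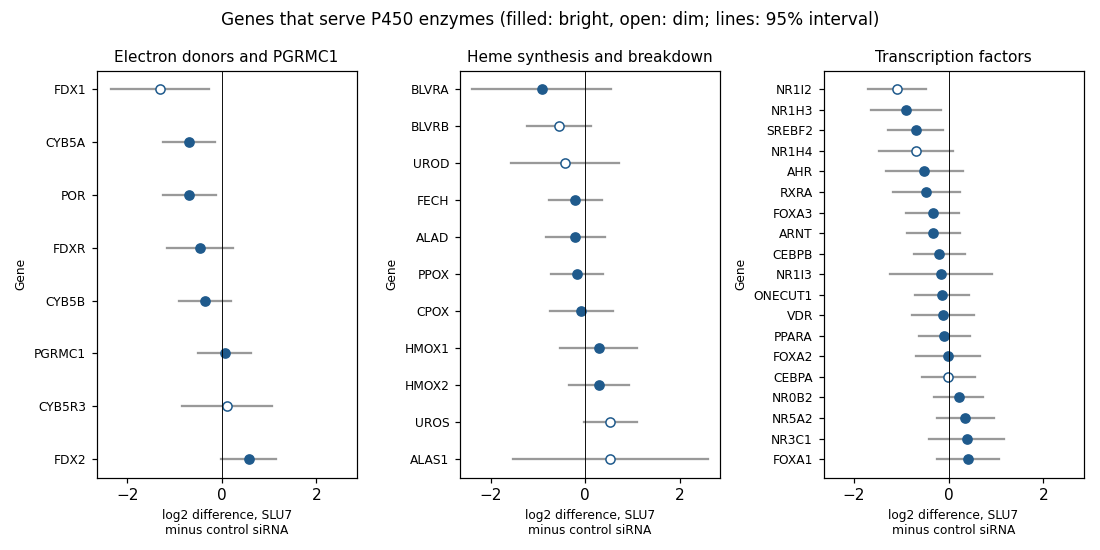
Log2 difference (SLU7 siRNA minus control siRNA, 3 arrays each) with 95% intervals for 8 electron donors and binding partners, 11 genes of heme metabolism and 19 transcription factors. Filled points are bright and open points dim, and no gene shown passed the limma test over all clusters.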

How the data were processed

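The deposited log2 values of 6 arrays, 1 per sample, were used as given. The authors summarised core probes with an aroma.affymetrix chip definition, per the labels, and RMA (background correction, normalization, summary) is named in the submitters' processing notes. The genome build is not given in the sources used here. With 1 value per gene, altered exon use and altered level look alike.

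Symbols came from the platform annotation (16287 of 18708 clusters had 1) and were updated through RefSeq (GRCh38.p14); 2 of 46 members changed name and all 46 matched. Outside chromosome 8, promoter entries matched 32 members. The test was limma's (lmFit and eBayes, version 3.58.1 under R 4.3.3) over all clusters, with Benjamini-Hochberg adjustment at 0.05 and no filter. Single values were also tested by exact permutation. On simulated data for this comparison (18708 clusters, 20 simulations, 200 clusters changed in each), limma called 83.8% of genes changed by 2 log2 units and 5.95% of those changed by 1. False calls averaged 6.3. Noise was drawn independently for each value, without the pair of arrays that stands apart, so these rates may not hold for the real arrays.

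The named genes are SLU7, called members, the 8 brightest members, the 6 lowest and highest differences among bright and 3 among dim members, the brightest of each family, the 2 nearest the limit on each side and 2 bright genes per partner list; others named were chosen after their values were seen. Members and lists were chosen with earlier results of these data known. Alternatives were the replicate number as a block, a threshold of 0.01, quantile normalization, array weights, median centring, leaving out dim clusters, an intensity trend, averaging a gene's clusters, other bright limits, leaving out arrays, and a block for the pair that stands apart, which was read off these same arrays. The correlations of deviations from the group means were -0.38, -0.31 and 0.14 between arrays of the same replicate number. Between other numbers they ran from -0.35 to 0.52, the highest being control replicate 2 with SLU7 replicate 1. With 3 arrays per group these values cannot settle whether replicate numbers pair the samples. No 2 arrays were copies (at most 9 identical values).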

Additional observations from a re-analysis of the deposited data

How the results depend on the processing

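The number of arrays limits these results: leaving out any 1 of the 6, or both that stand apart, left 0 clusters called by limma. At an unadjusted p under 0.05 there were 1833 to 2573 clusters and 8 to 11 P450 genes without 1 array, and 2922 and 9 in the other 4 arrays. With the replicate number as a block, 0 clusters and 0 P450 genes were called (1845 and 11 unadjusted), and CYP4F3 had an adjusted p of 0.165. At a threshold of 0.01, 0 clusters and 0 P450 genes were called. Against 81 clusters and 1 P450 gene called, array weights gave 575 and 5, an intensity trend with robust shrinkage 441 and 3, and the pair that stands apart as a block 783 and 4, a block that was read off these same arrays. Without dim clusters 474 were called, and the P450 gene called was CYP2C18. CYP4F3, with a mean of 5.95 over the 6 arrays, counted as dim and was not in that test. Quantile normalization (100), median centring (81) and gene means (79) kept CYP4F3 as the call. Partner genes called were 1, NR1I2, with the pair as a block and 0 otherwise. Both group means of NR1I2 were below the lower quartile of all clusters. The causes were not tested.

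The count of P450 genes without overlap was 12 (26.1% of the family, against 18.9% of all clusters). It was 6 when dim genes were left out (33.3% of bright members, against 24.2% of bright clusters). In the 4 arrays it was 21 and without 1 array 15 to 19, where fewer arrays must separate. The share of all clusters is not given for those smaller sets, so their counts are not read as a result about the family. The bright median was -0.10 and the dim one -0.26 with the limit at the lower quartile. Without 1 array the bright median ran from -0.39 to -0.18, the dim one from -0.19 to 0.05, families 1 to 3 from -0.25 to -0.11, family 4 from -0.41 to 0.083, sterol families from -0.54 to -0.24, steroid families from -0.13 to 0.19, and families 24 and 26 from -0.21 to 0.06. With bright genes alone, families 1 to 3 had a median of -0.37, sterol families -0.66, and family 4, then CYP4F11 alone, 1.43. That family 4 value leaves out CYP4F3 and CYP4F12, whose control means were above the bright limit but whose means over all arrays were not. The value of families 1 to 3 also depends on a limit set on the compared values.

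The genes below are the named ones whose sign turned. None had passed the limma test, as was true of 45 of 46 members, so that says nothing about robustness. Members not named by rule were not followed through every fit. Among those, CYP4X1 went from -0.16 in the main fit to 0.26 in the 4 arrays. With array weights the differences were 0.11 for CYP11A1, -0.074 for CYP11B1, -0.054 for CYP17A1, -0.0092 for CYP24A1 and 0.10 for CYP46A1. In the 4 arrays they were 0.16, -0.062, -0.096, -0.020 and 0.28 in that order. Without 1 array the ranges were -0.23 to 0.20 for CYP11A1, -0.11 to 0.26 for CYP11B1, -0.28 to 0.19 for CYP11B2, -0.037 to 0.13 for CYP17A1, -0.16 to 0.52 for CYP21A2, -0.15 to 0.28 for CYP24A1, -0.27 to 0.016 for CYP26B1, -0.061 to 0.29 for CYP2D7, -0.22 to 0.38 for CYP39A1, -0.026 to 0.40 for CYP3A7, -0.47 to 0.44 for CYP46A1 and -0.67 to 0.18 for CYP7B1.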

Other observations

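A further 5 clusters carried a P450 symbol together with other symbols and were not read as members. The P450 genes were slightly brighter in the outlying pair of arrays (control replicate 2 and SLU7 replicate 1) than in the remaining 4, by a median of 0.18 log2 units against 0.10 for all clusters, with the largest such gap among the genes named here in CYP21A2 (1.02), CYP4F11 (0.94) and CYP46A1 (0.92) and gaps of the opposite sign in CYP7A1 (-1.79), CYP4F12 (-1.27) and CYP4F3 (-0.74), among others. Among the 38 start regions of 32 members in the RefSeq table, outside chromosome 8, the TATA box TATAAA was found on either strand in 13 (34.2%), against 11.5% of all regions, AGGTCA in 10 (26.3%, against 13.8%), TGTTTAC in 4 (10.5%, against 3.42%), CCAAT in 18 (47.4%, against 34.6%) and GCGTG in 11 (28.9%, against 36.5%). Chromosome 8, which holds CYP11B1, CYP11B2, CYP7A1 and CYP7B1, was left out for the members only. The shares of all regions were taken without that step. These shares are descriptions, and no difference between them was tested.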
